A study of Mus musculus with 28 samples.

Results

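The results concern macrophages depleted of Wdr82 and followed through lipopolysaccharide (LPS) stimulation: 4 libraries of newly made RNA, of 28 libraries in the series. They were chosen by their labels, as the unstranded libraries of metabolically labelled RNA from cells carrying the Wdr82 hairpin sh1137. The 4 libraries came from cells given LPS for 45 min, 2 h or 4 h and from untreated cells, with 1 library per time.

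All cells were macrophages grown from the bone marrow of FVB/Hsd mice, used on day 7 of differentiation after retroviral infection and puromycin selection. The matched series carried the empty vector LMP and had the same 4 times, so the design cannot tell an effect of Wdr82 depletion from that of expressing any hairpin. LPS was used at 10 ng/ml, and 4-thiouridine (4sU), a uridine analogue that cells build into RNA as it is made, was present for the last 45 min before harvest. Also used here are a stranded 4sU pair of sh1137 cells (LPS for 1 h and untreated) and a polyA RNA pair of sh1137 cells (LPS for 4 h and untreated). Nothing in the labels says whether the libraries came from separate mice or cultures. The labels' protocol text gives 4 h of LPS for every treated sample, and the shorter times were read from the sample titles.

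LPS, a component of the outer membrane of Gram-negative bacteria, is recognised on macrophages by TLR4 with its partners CD14 and MD-2. The adaptor MyD88 leads to NF-kappaB and the MAP kinases and to genes transcribed within minutes, while the adaptor TRIF leads to IRF3 and interferon beta, whose own receptor then drives the interferon-stimulated genes. Wdr82 is a WD40 protein found both in the SET1 histone methyltransferase complexes and with PNUTS, a regulatory partner of protein phosphatase 1, and has been linked to the ending of transcription.

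Promoters of 6 genes described below are shown as examples, picked among genes in which a match was found. They are Cxcl1, Cxcl2 and Nfkbia of the early NF-kappaB group and Ifit1 of the interferon-stimulated group. Cxcl10 and Gbp5, which were high early and higher late, are also shown. Each stretch is read 5′ to 3′ on the gene's strand from the RefSeq promoter window of 250 bases before to 50 bases after the start (GRCm38.p6), and capitals mark matches on either strand to the NF-kappaB consensus, to the interferon-stimulated response element (ISRE) core (GAAA, any 2 bases, GAAA) or to the AP-1 site TGANTCA.
Cxcl1, chr5:90891159-90891199, forward strand: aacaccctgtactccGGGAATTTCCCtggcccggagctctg
Cxcl2, chr5:90903787-90903827, forward strand: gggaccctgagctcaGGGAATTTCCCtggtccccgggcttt
Nfkbia, chr12:55492652-55492691, reverse strand: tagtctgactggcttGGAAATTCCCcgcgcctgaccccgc
Ifit1, chr19:34640770-34640828, forward strand: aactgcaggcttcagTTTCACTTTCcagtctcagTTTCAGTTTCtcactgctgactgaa
Cxcl10, chr5:92348942-92349117, reverse strand: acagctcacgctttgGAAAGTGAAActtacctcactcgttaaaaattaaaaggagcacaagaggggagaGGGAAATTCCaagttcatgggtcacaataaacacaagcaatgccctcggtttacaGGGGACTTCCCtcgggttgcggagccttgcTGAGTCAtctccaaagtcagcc
Gbp5, chr3:142496754-142496881, forward strand: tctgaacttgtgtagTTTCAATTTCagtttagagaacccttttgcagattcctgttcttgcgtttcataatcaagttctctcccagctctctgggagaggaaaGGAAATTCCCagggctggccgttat
In the Cxcl1 and Cxcl2 windows the NF-kappaB match read on both strands, at overlapping positions. For these stretches only the 250 bases before the start were searched. There Ifit1 held a pair of ISRE cores and no NF-kappaB match, whereas Cxcl10 and Gbp5 held both motifs. In the same 250 bases Ifit2, also an interferon-stimulated gene, held an NF-kappaB match and no ISRE core. Il6, a cytokine gene highest at 4 h, held an NF-kappaB match and an AP-1 site there. Whether these motifs go with the timing of a gene was not tested.

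The Wdr82 hairpin series was below its control for the targeted gene at every time. Wdr82 itself was at 10.3 FPKM without LPS, 11.7 at 45 min, 11.8 at 2 h and 16.2 at 4 h in sh1137 cells. In LMP cells it was at 21.6, 23.8, 27 and 32.5 FPKM at the same times. Between 13445 and 13765 entries of 36806 reached 1 FPKM, a level scaled to transcript length and sequencing depth, in the sh1137 libraries. The most common ratio to untreated among entries under 2 FPKM put the LPS libraries at an estimated 0.595 to 0.674 of the untreated depth. Macrophage identity was plain: the 17 markers found summed to 4009 to 6392 FPKM, with Lyz2 at 1763 FPKM without LPS, 1938 at 45 min, 2023 at 2 h and 2414 at 4 h. Csf1r was at 169 FPKM without LPS, 244 at 45 min, 158 at 2 h and 134 at 4 h. Markers of other cell types were low. The lymphocyte list summed to 9.45 to 18.6 FPKM with 11 of 13 members under 1 FPKM throughout, the erythroid and megakaryocyte list to 1.99 to 5.89 FPKM, and the neutrophil list to 70.6 to 130.7 FPKM, highest at 4 h. The mast cell list reached 78.7 FPKM at 4 h through Hdc, a histidine decarboxylase at 0.217 FPKM without LPS, 0.574 at 45 min, 21.2 at 2 h and 77.6 at 4 h, while Kit did not exceed 1.73 FPKM and 5 of its 11 members were at 0 in all 4 sh1137 libraries. The stromal list summed to 14.3 to 15.3 FPKM up to 2 h and to 56.1 FPKM at 4 h, of which Pecam1 gave 35.8 FPKM. The part of other cells in the 4 h values was not tested. In bulk RNA, fewer cells of a type and less RNA per cell cannot be told apart.

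With 1 library per time, a gene is described here as higher or lower where its log2 ratio to the untreated library, computed as log2((FPKM + 1)/(FPKM + 1)), reached 1 in size, that is 2-fold, and the entry had at least 1 FPKM in either library and an OK status in both. The words rose and fell are kept for genes that passed a limma test over the 8 unstranded libraries of both vectors. The test had time and vector as terms (Benjamini-Hochberg adjusted p under 0.05, 3 residual degrees of freedom). Its error is how far the difference between the sh1137 and LMP series varied between times. A difference that is constant over the times does not enter it. That test describes the response the series share.

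The response grew in breadth with time. At 45 min, 1263 of 14505 entries (8.71%) were higher than in untreated cells and 619 (4.27%) were lower. At 2 h, 1905 of 14538 (13.1%) were higher and 1266 (8.71%) lower, and at 4 h 3149 of 14935 (21.1%) were higher and 1742 (11.7%) lower. Without the names of small RNAs, clones and predicted genes, the counts were 692 higher and 169 lower at 45 min, 1239 and 655 at 2 h, and 2049 and 1154 at 4 h. The median log2 ratio over all entries was 0.06 at 45 min, 0.07 at 2 h and 0.17 at 4 h. Setting it to 0 changed the share of higher entries among those called to 61.99, 55.41 and 54.42%, against 67.11, 60.08 and 64.38% without centring. The deposited confidence bounds are wide: they did not overlap for 87, 179 and 323 of the higher entries and for 0, 24 and 53 of the lower ones. In the LMP series 824 (5.96%), 1611 (11.5%) and 2900 entries (20.3%) were higher and 635 (4.6%), 1019 (7.3%) and 1608 (11.3%) lower at the same times. Over both vectors, limma called 727 entries higher (4.51% of 16106) and 287 lower (1.78%) at 45 min, 2548 (15.8%) and 1326 (8.23%) at 2 h, and 4321 (26.8%) and 2397 (14.9%) at 4 h. With quantile-normalized values the 4 h split turned to 2787 higher and 3696 lower, so that small shifts at 4 h depend on the scaling.

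**Figure D1:**
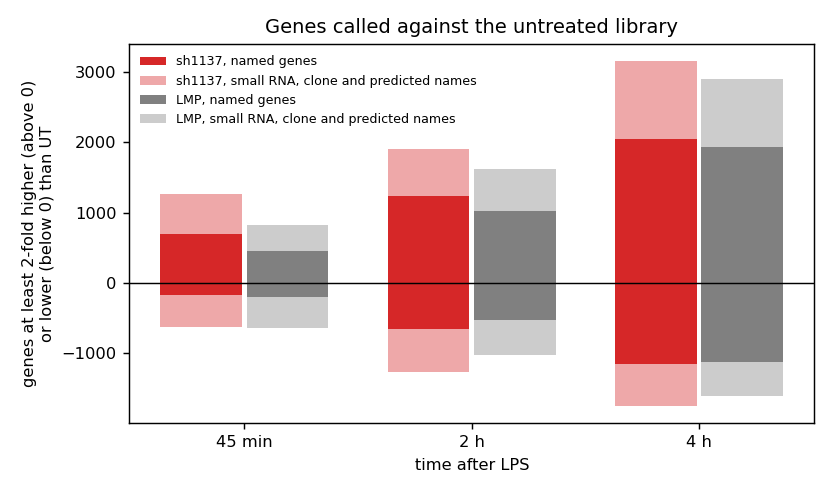
Number of entries at least 2-fold higher (bars above 0) or lower (below 0) than the untreated library at each time after LPS, in sh1137 and LMP cells, with named genes in full colour and small RNA, clone and predicted names in the paler part. Bars lengthen with time in both series, and at 45 min 692 of 1263 higher sh1137 entries were named genes.

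Sorted by the time of their highest value, 356 of 2463 named genes that were higher at any time in sh1137 cells (14.5%) were highest at 45 min, 357 (14.5%) at 2 h and 1750 (71.1%) at 4 h. In LMP cells 172 of 2200 (7.82%) were highest at 45 min, 292 (13.3%) at 2 h and 1736 (78.9%) at 4 h. The 3 comparisons within each series share the untreated library, so the sets were not compared with each other. A promoter window was found for 8735 of the 10776 named genes tested (81.1%). An NF-kappaB match stood in 17.2% of the promoters of sh1137 genes highest at 45 min and in 21.8% of those highest at 2 h, beside 12.3% of the promoters of all named genes tested and 9.55% of the 27025 promoters in the table. An AP-1 match stood in 10.2, 6.83, 6.46 and 8.97%, and an ISRE core in 3.86, 1.71, 4.03 and 3.99% of the same 4 groups of promoters. For genes highest at 4 h fewer than 80% had a promoter window (79.2%), so that check is void.

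The immediate early transcription factors, which cells switch on without new protein synthesis, had their highest median ratio at 45 min. At 45 min 20 of 24 tested members were higher in sh1137 cells, with a median log2 ratio of 2.37 beside 0.06 for all entries, and 16 of 25 rose over both vectors. By 2 h 10 of 23 were higher and 2 lower, and 9 of 25 rose while 4 fell. Of all entries 13.1% were higher and 8.71% lower at 2 h in sh1137 cells, so the count of lower members is near that share. Egr1, a zinc-finger factor of the growth-factor response, was at 2.61 FPKM without LPS, 443 at 45 min, 0.869 at 2 h and 3.38 at 4 h. Its only high library was that of 45 min, and the 2 h value lay under the untreated value: Egr1 rose at 45 min by 6.75 ± 0.17 (log2 ± SE, limma adjusted p 0.00039) and fell at 2 h (-1.03 ± 0.17, adjusted p 0.014). Fos, a subunit of AP-1, was at 8.78 FPKM without LPS, 134 at 45 min, 4.23 at 2 h and 14.4 at 4 h and followed the same course. Junb, another AP-1 subunit, was at 39.3 FPKM without LPS, 794 at 45 min, 299 at 2 h and 274 at 4 h and so stayed well above its untreated level. Btg2, an antiproliferative regulator, was at 11.9 FPKM without LPS, 236 at 45 min, 25.9 at 2 h and 40.3 at 4 h. Atf3, a repressor of inflammatory genes, was at 117 FPKM without LPS, 1460.2 at 45 min, 357 at 2 h and 859.9 at 4 h. Klf6, a zinc-finger factor, was high at 4 h as well as at 45 min, at 239 FPKM without LPS, 1129.5 at 45 min, 644 at 2 h and 1277 at 4 h. Nr4a3, an orphan nuclear receptor, was highest at 2 h, at 0.286 FPKM without LPS, 6.24 at 45 min, 36.2 at 2 h and 17.1 at 4 h.

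Dual-specificity phosphatases, which switch MAP kinases off, were higher in 6 of 10 tested members at 45 min in sh1137 cells, and Dusp6 was lower. Of all entries 8.71% were higher and 4.27% lower at that time. Dusp1 was at 19.5 FPKM without LPS, 757 at 45 min, 47.8 at 2 h and 41.4 at 4 h. It rose at 45 min (5.16 ± 0.37, limma adjusted p 0.0045). Dusp2, at 3.01 FPKM without LPS, 97.5 at 45 min, 93.3 at 2 h and 43.3 at 4 h, was still high at 2 h. Dusp6, which acts on ERK, was low in all 3 LPS libraries, at 116 FPKM without LPS, 53.3 at 45 min, 7.85 at 2 h and 37.2 at 4 h. Zfp36 (tristetraprolin), which destabilises cytokine messages, was at 43.5 FPKM without LPS, 1145 at 45 min, 276 at 2 h and 619.9 at 4 h, highest at 45 min, and its relative Zfp36l2 was lower at each time, at 137 FPKM without LPS, 64 at 45 min, 17 at 2 h and 14.1 at 4 h. Both passed the limma test at all 3 times, Zfp36 as risen and Zfp36l2 as fallen.

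The NF-kappaB subunits and their feedback inhibitors rose early and stayed up. In sh1137 cells 16, 16 and 17 of 19 were higher at 45 min, 2 h and 4 h, with median log2 ratios of 2.76, 3.44 and 3.26, and over both vectors 17, 17 and 18 of 19 rose. Among all entries 8.71, 13.1 and 21.1% were higher in sh1137 cells, and 4.51, 15.8 and 26.8% rose over both vectors. Nfkbiz (IkappaB zeta), a co-activator of secondary NF-kappaB targets, was at 16.4 FPKM without LPS, 1279 at 45 min, 739 at 2 h and 715 at 4 h. Tnfaip3 (A20), an enzyme that edits ubiquitin chains to curb the pathway, was at 29 FPKM without LPS, 1902 at 45 min, 985 at 2 h and 1208 at 4 h. The values of both were highest at 45 min. Nfkbia (IkappaB alpha), which holds NF-kappaB in the cytoplasm and whose promoter match is printed above, was at 125 FPKM without LPS, 2767 at 45 min, 1737 at 2 h and 1474 at 4 h and rose by 4.32 ± 0.20 at 45 min (limma adjusted p 0.0014). Nfkb1, a subunit, was at 28.9 FPKM without LPS, 46.5 at 45 min, 324 at 2 h and 404 at 4 h. Rel, another subunit, was at 20.5 FPKM without LPS, 90.9 at 45 min, 256 at 2 h and 298 at 4 h. Of the 16 members with a promoter window (84.2% of 19), 11 held an NF-kappaB match.

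Inflammatory cytokines were higher in 16 of 20 tested members at 45 min, 19 of 21 at 2 h and 19 of 22 at 4 h, with median log2 ratios of 2.67, 3.16 and 4.12. Over both vectors 9, 17 and 18 of 23 rose, and 2 fell at 2 h. Among all entries 8.71, 13.1 and 21.1% were higher in sh1137 cells, and 4.51, 15.8 and 26.8% rose over both vectors. At 2 h 8.23% of them fell, near the share of the list. Tnf, among the first cytokines released, was at 80.4 FPKM without LPS, 5081 at 45 min, 2727 at 2 h and 3529 at 4 h, highest at 45 min. Il1b, which is processed by the inflammasome, went on increasing, at 0.659 FPKM without LPS, 292 at 45 min, 960.2 at 2 h and 1167 at 4 h. It rose by 9.86 ± 0.43 at 4 h (limma adjusted p 0.00036). Il6, a late cytokine of this response, was listed at 0 FPKM in untreated sh1137 cells and was at 5.61 FPKM at 45 min, 202 at 2 h and 645 at 4 h, with deposited bounds of 1.05 to 10.1 FPKM at 45 min and 62.8 to 1223 FPKM at 4 h. Il12b, the shared subunit of interleukins 12 and 23, was highest at 2 h, at 0.0462 FPKM without LPS, 4.92 at 45 min, 161 at 2 h and 105 at 4 h. Brief members stood beside these. Lif, a relative of interleukin 6, was at 0.555 FPKM without LPS, 46.1 at 45 min, 12.9 at 2 h and 0.898 at 4 h. Tnfsf9 (4-1BB ligand) was at 20.4 FPKM without LPS, 813 at 45 min, 116 at 2 h and 19.1 at 4 h. Csf2, the granulocyte-macrophage growth factor, was at 0.125 FPKM without LPS, 27.2 at 45 min, 10.3 at 2 h and 4.58 at 4 h. All of these 3 were highest at 45 min in sh1137 cells, and Csf2 passed the test at no time (limma adjusted p 0.19 at 45 min). Vegfa, the vascular growth factor, and the interleukin-6 relative Osm were the members that were lower at 2 h. Vegfa was at 14.1 FPKM without LPS, 10.9 at 45 min, 5.69 at 2 h and 10.6 at 4 h. Osm was at 14.7 FPKM without LPS, 73.6 at 45 min, 6.8 at 2 h and 31.3 at 4 h.

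Chemokines divided by timing. Among CXC chemokines 7 of 10, 8 of 11 and 8 of 11 were higher in sh1137 cells at 45 min, 2 h and 4 h, and among CC chemokines 9 of 11, 12 of 13 and 11 of 12. The shares of all entries were 8.71, 13.1 and 21.1%. Cxcl1, which draws neutrophils, was at 8.98 FPKM without LPS, 2925 at 45 min, 2333 at 2 h and 882 at 4 h, the largest ratio of any named gene at 45 min (log2 8.20), and rose by 8.04 ± 0.37 at 2 h over both vectors (limma adjusted p 0.00089). Its neighbour Cxcl2 was at 23.6 FPKM without LPS, 3947 at 45 min, 1667 at 2 h and 1745 at 4 h. Cxcl10, a ligand of CXCR3 on T cells, was instead highest at 4 h, at 2.61 FPKM without LPS, 226 at 45 min, 3199.8 at 2 h and 7155 at 4 h, and had the largest ratio of any named gene at 2 h and at 4 h (log2 9.79 and 10.95). Ccl5, which also attracts T cells, was at 2.62 FPKM without LPS, 46.5 at 45 min, 1486 at 2 h and 3762 at 4 h. Both rose over both vectors at 4 h, Cxcl10 by 11.06 ± 0.22 (adjusted p 9.7e-05) and Ccl5 by 10.30 ± 0.40 (adjusted p 0.00031). Ccl3 and Ccl4, which attract monocytes, were already at 316 and 320.2 FPKM in untreated sh1137 cells and reached 7311 and 9956 FPKM at 4 h.

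**Figure D2:**
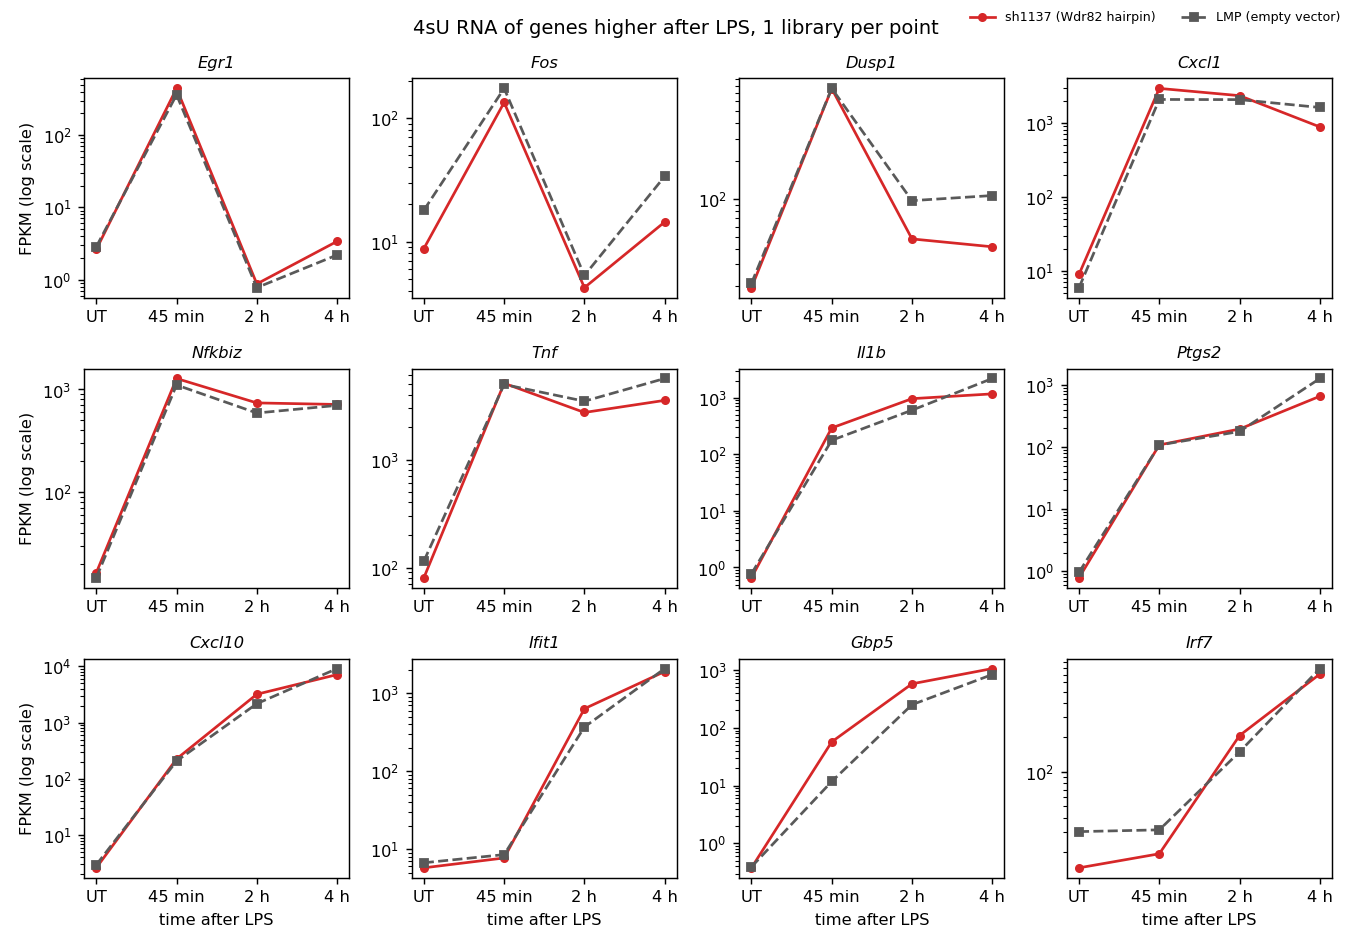
FPKM (log axis) of 12 LPS genes in untreated cells (UT) and after 45 min, 2 h and 4 h of LPS, with sh1137 as solid red and LMP as dashed grey lines, 1 library per point. Egr1, Fos and Dusp1 have their highest point at 45 min in both series, Cxcl1, Nfkbiz and Tnf are high from 45 min onwards, and Cxcl10, Ifit1, Gbp5 and Irf7 are highest at 4 h.

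The interferon genes followed. Ifnb1, which encodes interferon beta, was listed at 0 FPKM in untreated sh1137 cells, and was at 8.61 FPKM at 45 min, 46.3 at 2 h and 20.6 at 4 h, so it was highest at 2 h. It rose over both vectors at all 3 times (limma adjusted p 0.015, 0.0019 and 0.0014). Antiviral interferon-stimulated genes were higher in 2 of 31 tested members at 45 min, 28 of 30 at 2 h and 30 of 30 at 4 h, with median log2 ratios of 0.07, 2.98 and 4.79, and 2, 26 and 29 of 29 rose over both vectors. Of all entries 8.71, 13.1 and 21.1% were higher in sh1137 cells, and 4.51, 15.8 and 26.8% rose over both vectors. The antiviral counts at 45 min are near these shares. Rsad2 was not tested at 2 h and 4 h because its status was not OK. Ifit1, which binds viral RNA, was at 5.74 FPKM without LPS, 7.68 at 45 min, 633 at 2 h and 1898 at 4 h. It rose by 8.11 ± 0.26 at 4 h (limma adjusted p 0.00023). Ifit1 thus had no high value at 45 min, when Cxcl10 and Gbp5 already had. Mx1, a GTPase that blocks influenza virus, was at 5.03 FPKM without LPS, 3.64 at 45 min, 425 at 2 h and 2122 at 4 h. Cmpk2, a nucleotide kinase next to Rsad2, was at 5.49 FPKM without LPS, 4.84 at 45 min, 456 at 2 h and 2012 at 4 h. Isg15, a ubiquitin-like modifier, was at 4.56 FPKM without LPS, 9.02 at 45 min, 170.2 at 2 h and 737 at 4 h. The summed FPKM of the 31 antiviral genes was 427 in the untreated sh1137 library and 513, 5137 and 18056 in those of 45 min, 2 h and 4 h.

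The interferon-inducible GTPases, which attack vacuoles that hold microbes, were higher in 3 of 10, 14 of 15 and 15 of 15 tested members, with medians of 0.24, 4.18 and 5.79, and 3, 13 and 15 of 15 rose over both vectors. Gbp2, Gbp3 and Gbp5 were the 3 higher ones at 45 min. Gbp5 was at 0.377 FPKM without LPS, 57.2 at 45 min, 579 at 2 h and 1063 at 4 h, with deposited bounds of 0 to 0.946 FPKM in untreated cells and 5.17 to 110.3 FPKM at 45 min. Gbp2 was at 2.51 FPKM without LPS, 18.4 at 45 min, 282 at 2 h and 815 at 4 h. Iigp1, an immunity-related GTPase, had no such early value, at 0.344 FPKM without LPS, 0.168 at 45 min, 87.6 at 2 h and 529.6 at 4 h. Tgtp1 and Tgtp2, near-identical GTPases whose entries share 1 locus of 12 genes in the table, can exchange reads. Tgtp1 was at 0.787 FPKM without LPS, 0.797 at 45 min, 31.4 at 2 h and 89.9 at 4 h. Tgtp2 was at 1 FPKM without LPS, 1.46 at 45 min, 139 at 2 h and 421 at 4 h. Among the interferon factors 3, 12 and 12 of 17 were higher, beside 8.71, 13.1 and 21.1% of all entries. Irf1 was early, at 52.8 FPKM without LPS, 896 at 45 min, 852 at 2 h and 872 at 4 h. Irf7, which amplifies interferon production, was late, at 14.6 FPKM without LPS, 19.4 at 45 min, 207 at 2 h and 709 at 4 h. Stat2, which carries the interferon signal to the nucleus, was at 191 FPKM at 4 h against 11 FPKM in untreated sh1137 cells.

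The effector enzyme genes Irg1, Nos2 and Ptgs2 had their highest values at 4 h. Irg1, which makes itaconate, was at 6.94 FPKM without LPS, 419 at 45 min, 2001 at 2 h and 4153 at 4 h. Nos2, the inducible nitric oxide synthase, was at 0.0194 FPKM without LPS, 0.174 at 45 min, 99.3 at 2 h and 620.1 at 4 h. It rose by 8.99 ± 0.50 at 4 h (limma adjusted p 0.00043). Of the 10 genes for arginine, nitric oxide and itaconate enzymes, 2, 7 and 6 rose over both vectors at the 3 times and none of them fell. Among all entries 4.51, 15.8 and 26.8% rose. Ptgs2, the inducible cyclooxygenase, was at 0.785 FPKM without LPS, 108 at 45 min, 194 at 2 h and 655 at 4 h, while its constitutive relative Ptgs1 fell at 2 h and 4 h and was at 37.8 FPKM without LPS, 23.2 at 45 min, 9.53 at 2 h and 7.49 at 4 h. Saa3, an acute-phase protein, was at 0.438 FPKM without LPS, 7.86 at 45 min, 139 at 2 h and 1256 at 4 h. Among inflammasome and cell death genes 7, 10 and 12 of 16 were higher, beside 8.71, 13.1 and 21.1% of all entries. Nlrp3, the sensor of the inflammasome, was high at once, at 62.1 FPKM without LPS, 486 at 45 min, 303 at 2 h and 383 at 4 h. Casp1, which cleaves interleukin-1 beta, was high only later, at 30.6 FPKM without LPS, 35.4 at 45 min, 123 at 2 h and 327 at 4 h. Antigen presentation genes were higher in 4, 10 and 12 of 16 members, against the same shares of all entries. Cd40, a co-stimulatory receptor, was at 2.94 FPKM without LPS, 93.8 at 45 min, 290.2 at 2 h and 568 at 4 h. Tap1, a peptide transporter, was at 16.7 FPKM without LPS, 8.71 at 45 min, 102 at 2 h and 252 at 4 h. Among complement genes C3 was at 5.15 FPKM without LPS, 23.7 at 45 min, 97.9 at 2 h and 207 at 4 h. Cfb was at 0.808 FPKM without LPS, 0.991 at 45 min, 6.64 at 2 h and 63.9 at 4 h.

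Among LPS receptors and adaptors more genes rose than fell. Of 24 LPS receptors, adaptors and related genes, 4 rose at 45 min, 15 at 2 h and 17 at 4 h. Over all entries 4.51, 15.8 and 26.8% rose and 1.78, 8.23 and 14.9% fell. The 1, 3 and 3 genes of the list that fell lie near that background. Tlr4, the LPS receptor, was among those that fell, at 45 min and 2 h, and was at 43.7 FPKM without LPS, 22.6 at 45 min, 14.4 at 2 h and 40.7 at 4 h. Tlr2, the receptor of bacterial lipoproteins, was at 32.7 FPKM without LPS, 333 at 45 min, 367 at 2 h and 273 at 4 h. Cd14 was at 102 FPKM without LPS, 736 at 45 min, 417 at 2 h and 484 at 4 h. Tlr3, the receptor of double-stranded RNA, was at 3.77 FPKM without LPS, 3.34 at 45 min, 25.2 at 2 h and 119 at 4 h. Tlr2 and Cd14 were high from 45 min, and Tlr3 from 2 h. Among the feedback regulators of the SOCS family, Socs3 was at 4.95 FPKM without LPS, 309 at 45 min, 399.9 at 2 h and 327 at 4 h. Socs1 was at 2.83 FPKM without LPS, 1.78 at 45 min, 72.4 at 2 h and 125 at 4 h. Of the chemokine and growth factor receptors, Ccrl2 was at 11.6 FPKM without LPS, 765 at 45 min, 338 at 2 h and 611 at 4 h. Tnfrsf1b, a TNF receptor, was at 66.2 FPKM without LPS, 147 at 45 min, 391 at 2 h and 478 at 4 h. Both were above their untreated values in each LPS library.

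Genes with lower values were fewer at 45 min and mostly reached their lowest value late: of 1448 named genes lower at any time in sh1137 cells, 109 (7.53%) were lowest at 45 min, 309 (21.3%) at 2 h and 1030 (71.1%) at 4 h. Cxcr4, the receptor that retains cells in the bone marrow, was at 358 FPKM without LPS, 199.6 at 45 min, 26.8 at 2 h and 12.3 at 4 h and had the lowest ratio of any named gene at 4 h (log2 -4.76). It fell at 2 h (-3.25 ± 0.29) and 4 h (-4.83 ± 0.29) over both vectors (limma adjusted p 0.0034 and 0.00048). Rab3il1, an exchange factor for Rab proteins, was at 72.6 FPKM without LPS, 36.8 at 45 min, 12.2 at 2 h and 2.93 at 4 h. It fell at all 3 times, with a log2 change of -4.06 ± 0.13 at 4 h (limma adjusted p 0.00022). Klf10, a zinc-finger factor of TGF-beta signalling, was at 39.5 FPKM without LPS, 49.7 at 45 min, 5.08 at 2 h and 1.48 at 4 h. Snx24, a sorting nexin, was at 35 FPKM without LPS, 40.3 at 45 min, 6.18 at 2 h and 1.26 at 4 h. Neither was lower at 45 min. Plau (urokinase) was above its untreated value at 45 min before its low values, at 200.4 FPKM without LPS, 389 at 45 min, 28.4 at 2 h and 14.2 at 4 h. The Plau change at 45 min did not pass the test (adjusted p 0.25).

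Some genes were lowest at 2 h. Dusp6, described above, had this course. The receptor gene Cd300lb was at 100.1 FPKM without LPS, 42.8 at 45 min, 7.05 at 2 h and 7.91 at 4 h. Its value returned little at 4 h, and the receptor gene Gpr146 also fell at all 3 times. At 45 min the lowest ratios included Txnip, an inhibitor of thioredoxin, at 532 FPKM without LPS, 129 at 45 min, 253 at 2 h and 329.8 at 4 h, which fell (log2 change -2.25 ± 0.20, limma adjusted p 0.0079), and Zfp61, a zinc-finger gene, which fell too (-1.80 ± 0.14, adjusted p 0.0059). Zkscan4 had the lowest ratio at 45 min and 2 h, but rested on its untreated sh1137 value: it was at 30.0 FPKM without LPS, 1.04 at 45 min, 1.09 at 2 h and 1.34 at 4 h in sh1137 cells and at 2.52, 0.83, 1.41 and 1.44 FPKM in LMP cells, and passed no test (adjusted p 0.19 at 45 min). The ratios of Wdr12, Casp2 and Rhov, also among the 10 lowest at 45 min, did not pass at that time either (adjusted p 0.15, 0.083 and 0.091).

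**Figure D3:**
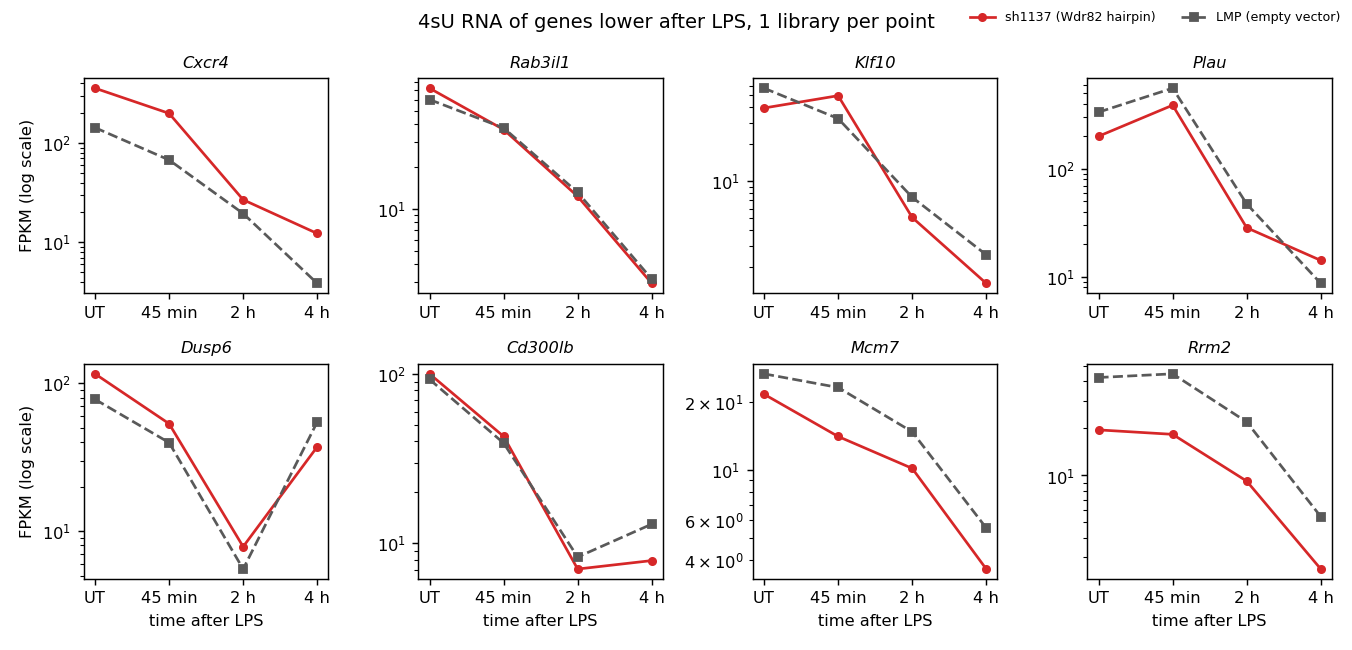
FPKM (log axis) of 8 genes that were lower after LPS, in untreated cells (UT) and after 45 min, 2 h and 4 h, with sh1137 as solid red and LMP as dashed grey lines, 1 library per point. Dusp6 and Cd300lb are lowest at 2 h in both series, while the other 6 are lowest at 4 h. Mcm7 and Rrm2 lie lower in sh1137 than in LMP cells at every time.

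Genes of cell division were low late. Of 28 genes of DNA replication and mitosis, 0, 5 and 19 were lower at 45 min, 2 h and 4 h in sh1137 cells, with a median log2 ratio of -1.19 at 4 h, and 0, 12 and 22 fell over both vectors. Among all entries 4.27, 8.71 and 11.7% were lower in sh1137 cells, and 1.78, 8.23 and 14.9% fell over both vectors. Mcm7, a subunit of the replicative helicase, was at 21.7 FPKM without LPS, 14.1 at 45 min, 10.2 at 2 h and 3.64 at 4 h. Rrm2, the regulated subunit of ribonucleotide reductase, was at 19.6 FPKM without LPS, 18.3 at 45 min, 9.2 at 2 h and 2.52 at 4 h. Both fell at 4 h, with log2 changes of -2.18 ± 0.13 for Mcm7 and -2.65 ± 0.13 for Rrm2 (limma adjusted p 0.00047 and 0.00039). Cdc6, which loads the helicase, was at 7 FPKM without LPS, 4.55 at 45 min, 1.66 at 2 h and 0.848 at 4 h. Mki67, a proliferation marker, was the exception at 45 min, at 78 FPKM without LPS, 186 at 45 min, 114 at 2 h and 54.5 at 4 h. Replication-dependent histones, made in S phase and ending without a polyA tail, were lower in 1, 1 and 30 of 57 tested members, with a median of -1.11 at 4 h, and 47 of 60 fell and 1 rose at 4 h over both vectors. Their near-identical copies can share reads. Hist1h1b, a linker histone, was at 62.1 FPKM without LPS, 44.7 at 45 min, 60.2 at 2 h and 17.6 at 4 h. Hist1h2an was at 22.8 FPKM without LPS, 12.3 at 45 min, 12.7 at 2 h and 2.39 at 4 h. Among 17 sterol and fatty acid synthesis genes 7 fell and 5 rose at 4 h, beside 14.9 and 26.8% of all entries. The share that rose is near that of all entries. Fasn, the fatty acid synthase, was at 10.5 FPKM without LPS, 9.66 at 45 min, 7.48 at 2 h and 3.19 at 4 h. Cytoplasmic ribosomal protein genes had medians of 0.19, 0.37 and 0.28, beside 0.06, 0.07 and 0.17 for all entries. At 4 h 0 of 73 tested members were higher and 1 lower in sh1137 cells, and 12 of 79 rose and 5 fell over both vectors. These counts lie below the shares of all entries, 21.1 and 11.7% in sh1137 cells and 26.8 and 14.9% over both vectors.

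Among the protein partners of Wdr82, the PNUTS gene Ppp1r10 moved most at 45 min. Ppp1r10 was at 111 FPKM without LPS, 277 at 45 min, 123 at 2 h and 195 at 4 h in sh1137 cells. In LMP cells it was at 52.4, 98.1, 57.1 and 102 FPKM, so it was higher in sh1137 cells at each time, and the LPS change at 45 min passed the test (1.10 ± 0.15, limma adjusted p 0.023). Tox4, another member of the PNUTS complex, was at 19 FPKM without LPS, 22.4 at 45 min, 34.5 at 2 h and 65.4 at 4 h. The phosphatase gene Ppp1cb was at 20.7 FPKM without LPS, 26.8 at 45 min, 51.3 at 2 h and 77.5 at 4 h, and its relative Ppp1cc, which fell at all 3 times, at 31.5 FPKM without LPS, 15.8 at 45 min, 12.2 at 2 h and 13.9 at 4 h. Of the 15 genes of the Wdr82, SET1 and PNUTS complexes, 1, 3 and 7 rose over both vectors and 1, 1 and 2 fell. Over all entries 4.51, 15.8 and 26.8% rose and 1.78, 8.23 and 14.9% fell, so the counts at 45 min and 2 h lie near the background. The count that fell at 4 h does too. Of 23 termination, cleavage and exosome factors, 2, 1 and 6 were higher in sh1137 cells, beside 8.71, 13.1 and 21.1% of all entries, with medians of 0.08, 0.06 and 0.66. The counts at 45 min and 2 h are near or below that background, and the count at 4 h is close to it. Over both vectors 2, 4 and 10 rose, beside 4.51, 15.8 and 26.8% of all entries, and the count at 2 h is near that share. Xrn2, the exonuclease that helps end transcription, was at 44.1 FPKM without LPS, 48.7 at 45 min, 74.7 at 2 h and 159 at 4 h. It rose by 1.66 ± 0.14 at 4 h (adjusted p 0.0011). Rbm7, of the nuclear exosome targeting complex, was at 28.7 FPKM without LPS, 87.9 at 45 min, 67 at 2 h and 89.9 at 4 h. Pcf11, a cleavage factor, was at 34.7 FPKM without LPS, 80.0 at 45 min, 31.5 at 2 h and 63 at 4 h. In the LMP series the median of this list at 4 h was 0.25, with 3 of 23 higher, below the 20.3% of all entries.

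**Figure D4:**
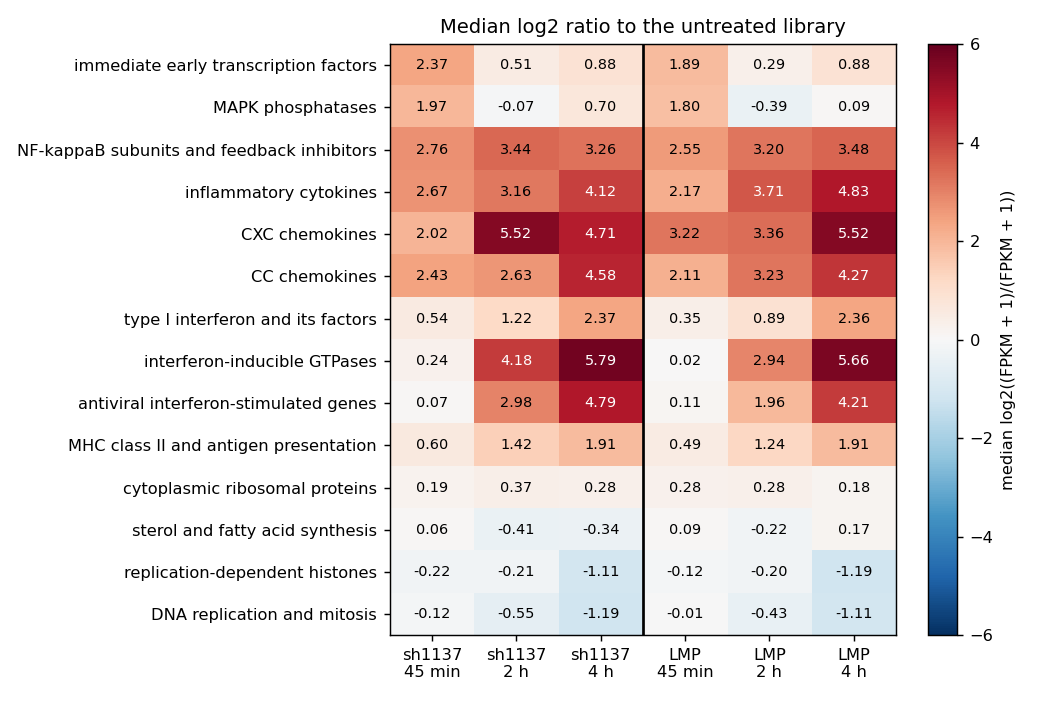
Median log2 ratio to the untreated library of 14 gene lists (rows) at 45 min, 2 h and 4 h in sh1137 (left 3 columns) and LMP cells (right 3 columns), with red above and blue below 0. Immediate early factors are highest at 45 min, and the replication and histone lists are lowest at 4 h. In sh1137 cells the antiviral and GTPase lists are at 0.07 and 0.24 at 45 min and reach 4.79 and 5.79 at 4 h. The list of type I interferon and its factors is at 0.54 and 2.37 at these times.

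The same course was then set beside that of the empty vector. Of named genes higher in sh1137 cells and tested in both series, 385 at 45 min (62.5%), 849 at 2 h (74.7%) and 1621 at 4 h (84.7%) were also higher in LMP cells. Of the LMP genes this was 87.5, 84.6 and 85.5%, so the share grew with time for the sh1137 genes and not for the LMP genes. Lower genes were shared less at 45 min, 75 of 162 (46.3% of the sh1137 and 40.3% of the LMP genes), than at 4 h, 807 of 1095 (73.7 and 73.8%). The difference of log2 ratios, sh1137 minus LMP, reached 1 in 451 of 13303 entries at 45 min (3.39%) and -1 in 270 (2.03%). At 2 h 469 of 13412 (3.5%) reached 1 and 376 (2.8%) -1, and at 4 h 466 of 13747 (3.39%) and 498 (3.62%). Most of these were not named genes, which gave 154 and 61, 207 and 135, and 178 and 200.

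A difference across whole lists appeared in the interferon genes at 2 h. All 30 antiviral genes tested had a larger log2 ratio in sh1137 than in LMP cells, by at least 1 in 12 of them, with a median difference of 0.95, and so did all 15 GTPases, 10 of them by at least 1 and with a median of 1.21. The median difference over all entries was 0.00 at that time. At 45 min the medians were -0.11 and 0.09, and at 4 h 0.33 and 0.34, with 24 of 29 and 11 of 15 above 0. The untreated libraries differed as well: the antiviral list summed to 427 FPKM in untreated sh1137 cells and 746 FPKM in untreated LMP cells, and to 5137 and 3579 FPKM at 2 h. For the GTPases the untreated sums were close, 83.7 FPKM in sh1137 and 76.4 FPKM in LMP cells, and at 2 h they were 2156 and 876 FPKM. Ifnb1 was likewise higher in sh1137 cells at each LPS time, at 8.61, 46.3 and 20.6 FPKM, against 5.79, 25.3 and 7.05 FPKM in LMP cells. Ifit1 was at 633 FPKM at 2 h in sh1137 cells and 368 FPKM in LMP cells, Nos2 at 99.3 and 24.3 FPKM, and Iigp1 at 87.6 and 9.66 FPKM. Serpina3g, a protease inhibitor, was at 65.3 and 4.47 FPKM, and Cxcl9, a T cell chemokine listed at 0 in both untreated libraries, at 44.8 and 2.7 FPKM. The LMP library of 2 h had the lowest relative depth of the 6 LPS libraries, 0.463 of its untreated library, against 0.646 in sh1137 cells. Its part in the difference was not tested.

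No named gene of these lists passed a test of the difference. In a limma fit of the sh1137 difference at 2 h against its mean over the other 3 times (named genes only, 2 residual degrees of freedom), 0 of 10966 genes were called higher and 0 lower, with 393 and 255 at an unadjusted p under 0.05. Nos2 differed by 1.73 ± 0.27 (log2 ± SE), Cmpk2 by 1.44 ± 0.21 and Ifit1 by 0.93 ± 0.17, each with an adjusted p of 0.599.

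The cytokines lay the other way at 4 h. Of 22 tested, 3 had a larger log2 ratio in sh1137 than in LMP cells and 7 were lower by at least 1, with a median difference of -0.70 beside -0.01 over all entries, after a median of 0.54 at 45 min, when 16 of 18 lay above 0. Il1b was at 1167 FPKM at 4 h in sh1137 cells and 2182 FPKM in LMP cells, but at 292 and 177 FPKM at 45 min. Csf2 was at 0.125 FPKM without LPS, 27.2 at 45 min, 10.3 at 2 h and 4.58 at 4 h in sh1137 cells and at 0, 2.76, 17.1 and 28 FPKM in LMP cells, so it was highest at 45 min in sh1137 cells and at 4 h in LMP cells. Il1a was at 135 and 385 FPKM at 4 h, Il27 at 108 and 329 FPKM, Edn1, the vasoconstrictor endothelin, at 74.5 and 319.8 FPKM, and Ptges, a prostaglandin synthase, at 11.1 and 76.5 FPKM in sh1137 and LMP cells. Ccl8, a monocyte chemokine, stood against this direction, at 148 FPKM at 4 h in sh1137 cells and 5.02 FPKM in LMP cells. In the fit of the difference at 4 h against the other times, 0 of 10966 named genes were called in either direction, with 437 higher and 525 lower at an unadjusted p under 0.05. Cxcl1 differed by -1.27 ± 0.22, Il12b by -1.51 ± 0.25 and Plau by 1.31 ± 0.17, each with an adjusted p of 0.418. A limma test of the LPS response averaged over the 3 times called 42 entries higher in sh1137 cells (0.261% of 16106) and 68 lower (0.422%), of which 1 was a named gene, an entry for Uck2. Without the libraries of any 1 of the 3 LPS times the same test called 0 entries.

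**Figure D5:**
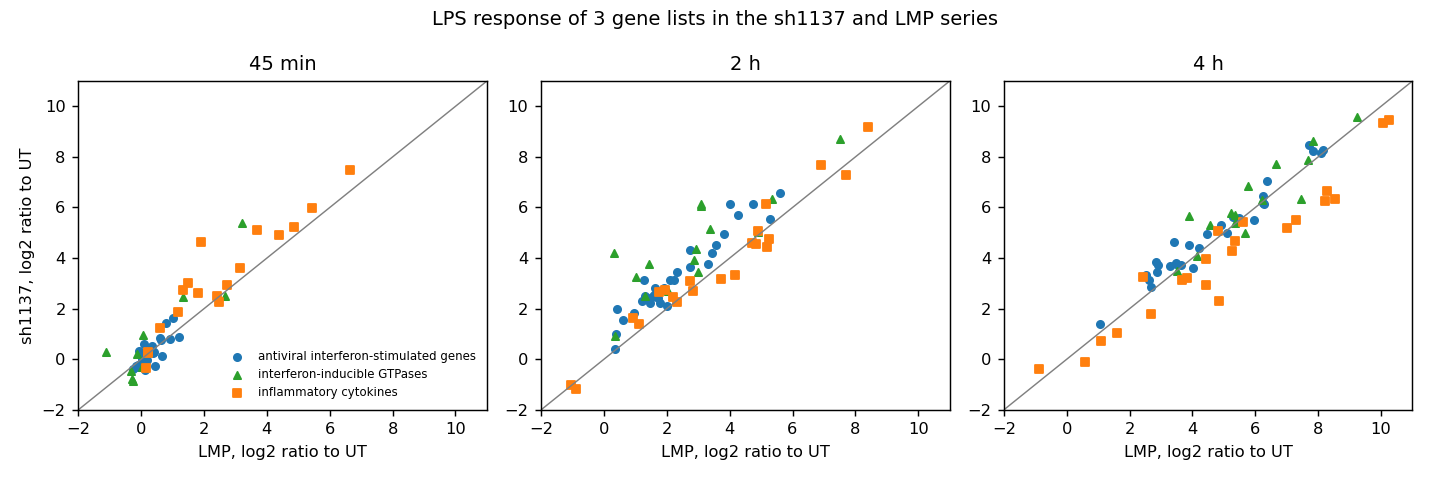
Log2 ratio to the untreated library in sh1137 cells (vertical axis) against LMP cells (horizontal axis) at 45 min, 2 h and 4 h, 1 point per gene, for antiviral interferon-stimulated genes (blue circles), interferon-inducible GTPases (green triangles) and inflammatory cytokines (orange squares), with the line of equality. At 2 h all 30 antiviral genes and all 15 GTPases lie above the line, and at 4 h 19 of 22 cytokines lie below it.

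Separate sh1137 libraries gave a view of the early and late ends. In the stranded pair, prepared so as to keep the strand, 619 of 13838 entries were higher after 1 h of LPS than in untreated cells (4.47%) and 630 lower (4.55%). Of 611 named genes higher at 45 min in the unstranded series and tested in both, 202 were also higher in the stranded pair, which is 33.1% of the 45 min genes and 74% of the 273 stranded genes, and 4 were lower. Of 156 lower ones 13 were shared (8.33%, and 11.2% of the stranded genes). Cxcl1 was at 2248 FPKM after 1 h of LPS against 44.6 FPKM in untreated cells in the stranded pair. Il1b was at 80.7 FPKM after 1 h of LPS against 2.37 FPKM in untreated cells. Egr1 went against the unstranded series, at 5.61 FPKM after 1 h of LPS against 34.5 FPKM in untreated cells, with the high value in the untreated library. Gbp5 was at 21.1 FPKM after 1 h of LPS against 1.53 FPKM in untreated cells, and Ifit1, at 14.1 FPKM after 1 h of LPS against 13.9 FPKM in untreated cells, was again no higher this early.

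The polyA pair measures the messages present rather than those made in the labelling time. After 4 h of LPS 2002 of 12548 entries were higher than in untreated cells (16%) and 776 lower (6.18%). Of 1875 named genes higher at 4 h in 4sU RNA and tested in both, 1334 were also higher in polyA RNA (71.1%, and 90% of the 1483 polyA genes) and 0 were lower. Of 1043 named genes lower in 4sU RNA, 430 were shared (41.2%, and 76.2% of the 564 polyA genes), with 0 in the opposite direction. The median log2 ratio of the 1043 genes was -1.39 in 4sU RNA and -0.89 in polyA RNA. Cxcl10 was at 7177 FPKM after 4 h of LPS against 7.6 FPKM in untreated cells in polyA RNA. Il6 was at 456 FPKM after 4 h of LPS against 0.0675 FPKM in untreated cells. Saa3 was at 1411 FPKM after 4 h of LPS against 33.2 FPKM in untreated cells. Cxcr4 was at 25.7 FPKM after 4 h of LPS against 137 FPKM in untreated cells. Rab3il1 was at 7.1 FPKM after 4 h of LPS against 83.3 FPKM in untreated cells. The 4sU and polyA values come from tables normalized separately, so ratios were taken within each table.

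Several entries that stood out between the vectors share or adjoin the locus of another LPS gene. The olfactory receptor gene Olfr433, of a family that serves the sense of smell, was at 0.376 FPKM without LPS, 26.7 at 45 min, 13.9 at 2 h and 28.4 at 4 h in sh1137 cells, against 0.41, 2.23, 1.33 and 4.38 FPKM at the same times in LMP cells. Its neighbour Olfr432 was at 0.51 FPKM without LPS, 22.9 at 45 min, 11.4 at 2 h and 26.1 at 4 h in sh1137 cells, against 0, 0.966, 0.241 and 1.65 FPKM in LMP cells. In the table's mm9 coordinates Olfr433 lies at chr1:175972064-175973067 and Olfr432 at chr1:175980506-175981444, 10177 and 18619 bases from Ifi205 (chr1:175942129-175961886), an interferon-inducible gene at 6.34 FPKM without LPS, 21.6 at 45 min, 32.8 at 2 h and 94.8 at 4 h in sh1137 cells. Both olfactory entries were thus above their untreated value in all 3 sh1137 LPS libraries, and over both vectors they rose at 4 h (limma adjusted p 0.042 for Olfr432 and 0.028 for Olfr433). These libraries were not stranded, so reads of a gene and of transcription running through or against it cannot be told apart. Loh12cr1, whose ratio at 45 min was among the 5 most raised over LMP, lies 4285 bases from the phosphatase gene Dusp16, which had no usable value in that library. Kctd12 was at 0.182 FPKM without LPS, 81.8 at 45 min, 0 at 2 h and 0.149 at 4 h in sh1137 cells. In LMP cells it was at 24.1, 27.7, 93.6 and 61.7 FPKM. The sh1137 bounds of Kctd12 at 45 min ran over 0 to 399 FPKM.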

How the data were processed

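Per the submitters' processing notes, reads were aligned with TopHat 1.3.1 to mm9 and quantified with Cufflinks and Cuffdiff 2.1.1, and FPKM values were deposited by the authors, 1 table per set, with confidence bounds and a status per entry per the file headers. Fragment counts were not given, so FPKM were not treated as counts. The series has 6 such tables, of which those of unstranded 4sU, stranded 4sU and polyA RNA were used, each with 36806 entries and 33411 symbols. Where several entries share a symbol, the entry with the largest mean FPKM stands for it. Per library 0.709 to 0.725% of entries had a status other than OK.

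Ratios were log2((FPKM + 1)/(FPKM + 1)), which understates changes of low genes, tested where FPKM was at least 1 in either library and called at 2-fold. Relative depth was estimated from the most common ratio of LPS to untreated FPKM among entries under 2 FPKM in both libraries. This estimate also takes in the scaling of the deposited values. Differences over the 8 unstranded libraries were fitted with limma 3.58.1 (empirical Bayes with trend, R 4.3.3) on log2(FPKM + 1), with Benjamini-Hochberg adjustment at 0.05, and the procedure was tested on simulated data. Since each group has 1 library, the error of these fits is the change in the vector difference between times that the fitted terms leave. It may be technical. Python 3.11.15, pandas 2.3.3, numpy 2.4.6 and matplotlib 3.10.9 were used. Promoters came from a RefSeq table (GRCm38.p6), with coordinates not converted to mm9.

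Named genes were the 10 highest and 10 lowest ratios per time (at least 5 FPKM), up to 4 members per list with the largest ratios, 37 preset genes, and the 5 most raised and 5 most lowered differences between vectors. Other members of the 39 lists are named as examples, chosen after their values were seen. A few genes that the rule or lists contain are not reported here. The libraries and lists were chosen with earlier results of these data known. Alternatives were other pseudocounts and FPKM minimums, centring, quantile normalization, leaving out a time, and leaving out entries named as small RNAs, clones or predicted genes.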

Additional observations from a re-analysis of the deposited data

Results flagged for a closer look

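The LPS response averaged over the 3 times differed between the vectors by limma's interaction test in 42 entries (higher in sh1137 cells) and 68 entries (lower in sh1137 cells), of which 1 had a name other than that of a small RNA, clone or predicted gene. That was an entry for Uck2, a uridine-cytidine kinase gene, with a difference in LPS response of 10.51 ± 0.21 (log2 ± SE, adjusted p 0.00535): it is listed at 0 FPKM in all 4 sh1137 libraries and in the LMP libraries after LPS, and at 1460 FPKM in untreated LMP cells, while the other Uck2 entry of the table was at 4.72 FPKM in untreated sh1137 and 6.02 FPKM in untreated LMP cells.

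Among the genes that the naming rule gave, 2 of those reported here were at least 2-fold lower in the sh1137 series and at least 2-fold higher in the LMP series at the same LPS time. Over all genes other than small RNAs, clones and predicted genes, opposite calls at 45 min were 0 (higher in sh1137, lower in LMP) and 2 (lower in sh1137, higher in LMP). They were 2 and 2 at 2 h, and 1 and 1 at 4 h. Adamtsl4, a matrix protein gene, was at 18.6 FPKM without LPS, 26.6 at 45 min, 6.65 at 2 h and 25.1 at 4 h in sh1137 cells and at 3.81, 10.4, 18.7 and 26.9 FPKM at the same times in LMP cells, a difference of log2 ratios of -3.39 at 2 h. A limma test of the vector difference at 2 h against its mean over the other 3 times gave -2.43 ± 0.75 (log2 ± SE, adjusted p 0.764). Zfp618, a zinc-finger gene, was at 13.5 FPKM without LPS, 4.29 at 45 min, 0.742 at 2 h and 0.341 at 4 h in sh1137 cells and at 4.91, 23.8, 1.62 and 0.264 FPKM in LMP cells, with a difference of -3.53 at 45 min. The same test at 45 min gave -2.50 ± 0.70 (adjusted p 0.957), so neither difference passed.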

How the results depend on the processing

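No paired analysis was possible because each condition has 1 library with no replicate number, beyond the matching of times across vectors that the fit over both vectors already holds, and no replicate could be left out. Of 1088 alternative log2 ratios of named genes 1064 kept their direction and side of the threshold, as did 335 of 344 list medians, and none of at least 1 on the log2 scale changed sign. Of 148 alternative counts 88 stayed within 1.5 times the reported count, 13 were larger and 47 smaller. In sh1137 cells, a pseudocount of 5 FPKM gave 731 higher and 232 lower entries at 45 min, 1208 and 499 at 2 h, and 698 lower at 4 h. Leaving out small RNA, clone and predicted names gave 692 and 169, 1239 and 655, and 2049 and 1154. Lower entries at 45 min were 1016 with a pseudocount of 0.1 FPKM and 383 with at least 5 FPKM. With at least 5 FPKM, entries lowest at 45 min and 2 h were 314 and 371, against 512 and 613. Differences between vectors of at least 1, higher and lower, were 785 and 461 at 45 min, 779 and 665 at 2 h, and 821 and 811 at 4 h with a pseudocount of 0.1; 195 and 137, 232 and 185, and 237 and 291 with at least 5 FPKM; and 154 and 61, 207 and 135, and 178 and 200 over named genes (chosen after seeing the data). Lower entries shared with the stranded pair were 131 with a pseudocount of 0.1 and 40 with at least 5 FPKM, against 70, and with the polyA pair 829 with a pseudocount of 0.1, against 512. Limma's lower calls at 45 min were 162 without a filter and 434 after quantile normalization, which at 4 h gave 2787 higher and 3696 lower, against 4321 and 2397, so that lower calls outnumbered higher ones. The interaction calls were 76 higher and 119 lower without a filter, 40 lower with a pseudocount of 0.1, and 0 in each direction without the 45 min, the 2 h or the 4 h pair. They were 1 higher and 0 lower over named genes and, for single times (added after seeing the data), 28, 23 and 32 lower over all names and 0 in each direction over named genes. The cause of these changes was not tested, beyond the fewer entries or libraries that a filter or a left-out pair leaves. FPKM without counts and 1 library per time limit the precision of every single value.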

Other observations

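Several stress genes not described above were also high at 45 min. Sqstm1 (p62), an autophagy receptor and target of NRF2, was at 176 FPKM without LPS, 1361 at 45 min, 1217 at 2 h and 686 at 4 h in sh1137 cells. Nfe2l2, which encodes NRF2, was at 168 FPKM without LPS, 522 at 45 min, 299 at 2 h and 424 at 4 h. Of 12 NRF2 antioxidant genes, 5, 6 and 7 rose over both vectors at 45 min, 2 h and 4 h, and 0, 2 and 1 fell (limma, adjusted p under 0.05). Ppp1r15a (GADD34), which reverses the integrated stress response, was at 18.1 FPKM without LPS, 370.1 at 45 min, 59.6 at 2 h and 85 at 4 h. Hspa5, the chaperone of the endoplasmic reticulum, was at 130.3 FPKM without LPS, 317 at 45 min, 285 at 2 h and 443 at 4 h. Of 15 genes of the unfolded protein and integrated stress responses, 6, 4 and 6 rose and 0, 1 and 0 fell. Among 14 p53 targets 4, 4 and 5 rose and 0, 3 and 2 fell, with Cdkn1a (p21), a cell cycle inhibitor, at 87.1 FPKM without LPS, 556 at 45 min, 647 at 2 h and 594 at 4 h. Plk2 was at 76.8 FPKM without LPS, 673 at 45 min, 225 at 2 h and 674 at 4 h. Of 19 glycolysis genes 1, 4 and 8 rose and 2, 1 and 0 fell, and Pfkfb3, which makes an activator of glycolysis, was at 49.1 FPKM without LPS, 42.4 at 45 min, 37.4 at 2 h and 181 at 4 h. Of 13 heat shock chaperones 5, 5 and 4 rose and 0, 0 and 2 fell. Over all entries limma called 4.51, 15.8 and 26.8% higher and 1.78, 8.23 and 14.9% lower at these times. The counts of glycolysis genes that rose at 45 min and 2 h lie near that background. So do the heat shock counts at 4 h and the count of p53 targets that fell at 4 h.

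Surface receptors divided. Of 20 phagocytic and scavenger receptors 4, 5 and 11 rose at 45 min, 2 h and 4 h, and 0, 5 and 6 fell. Over all entries 4.51, 15.8 and 26.8% rose and 1.78, 8.23 and 14.9% fell at these times. Clec4e (Mincle), a receptor of mycobacterial glycolipid, was at 21.3 FPKM without LPS, 549 at 45 min, 484 at 2 h and 508 at 4 h, while Clec10a, a lectin, was at 31 FPKM without LPS, 22.1 at 45 min, 10.6 at 2 h and 4.85 at 4 h. Cd163, the haemoglobin scavenger receptor, was at 5.04 FPKM without LPS, 2.72 at 45 min, 1.23 at 2 h and 0.553 at 4 h. Axl, a receptor for dying cells, was at 9.22 FPKM without LPS, 15.4 at 45 min, 54.6 at 2 h and 116 at 4 h. Among cholesterol efflux and LXR target genes 0, 4 and 6 of 11 rose, and Ch25h, which makes 25-hydroxycholesterol, was at 15.8 FPKM without LPS, 34.5 at 45 min, 107 at 2 h and 269 at 4 h.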
